A study of Homo sapiens with 6 samples.

Results

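The 9 genes described here encode molecules that direct where T cells travel: the chemokine receptors CCR4, CCR7, CCR8, CCR10, CXCR3 and CXCR4, the selectin ligand SELPLG (P-selectin glycoprotein ligand, the protein core of the cutaneous lymphocyte antigen), the sphingosine 1-phosphate receptor S1PR1 and the integrin subunit ITGB7. They were chosen by name, as rows of the gene count table, and all 9 of them, out of 61541 genes in the table, passed the filter on low counts. Transcripts were measured by bulk RNA-seq in H9, an established and clonal human cutaneous T-cell lymphoma (CTCL) line with a wild-type genotype per the labels, so the libraries come from 1 line grown in culture and not from skin. Cells received vehicle (DMSO, 3 libraries) or the selective CDK9 inhibitor AZD4573 (3 libraries, 50 nM for 4 h, although 1 passage of the study gives a longer exposure). No label says that the libraries of a group came from separate cultures, so the p-values measure the spread between these libraries, which may be technical.

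Lymphocytes leave the blood in steps. Selectins on the vessel wall bind glycans carried by proteins such as SELPLG and slow the cell, chemokines then signal through G protein-coupled receptors on its surface, and activated integrins hold it fast. The set of receptors a T cell carries acts as an address: CCR4, CCR8, CCR10 and the glycosylated form of SELPLG are associated with skin, CCR7 with lymph nodes, CXCR3 with inflamed tissue, CXCR4 with bone marrow, and ITGB7 as part of the integrin α4β7 with gut, whereas S1PR1 guides cells out of lymphoid organs. CCR4 is abundant on malignant T cells of CTCL and is a target of antibody therapy in that disease. CDK9 phosphorylates RNA polymerase II (RNAP2) and releases it from pausing near the promoter, so its inhibition touches transcription as a whole.

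Upon AZD4573 treatment, 5 of the 9 genes were lower with a fold change of 1.5 or more and an adjusted p below 0.05 (CCR8, CXCR3, SELPLG, S1PR1 and CCR7), 1 was higher (CXCR4) and 3 were not called (CCR4, CCR10 and ITGB7), by edgeR's quasi-likelihood test with the Benjamini-Hochberg method. By the same rule, 23.7% of the 17678 genes tested were lower and 22.7% were higher. The median log2 fold change of the 9 genes was -0.63, beside 0.026 for all genes tested. The changes ran from CCR8, which lay at percentile 3.85 of the log2 fold changes of all genes tested, to CXCR4 at percentile 77.5. Levels are given as CPM, that is, relative to all counts of a library, with TMM scaling, which assumes that most genes do not change. Scaled instead to the 13 mRNAs of the mitochondrial genome, made by another polymerase, every one of the 9 log2 fold changes was lower: those of CXCR4, CCR10 and ITGB7 turned negative, CCR4 was called lower, and the other 5 genes were called lower under both scalings.

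**Figure D1:**
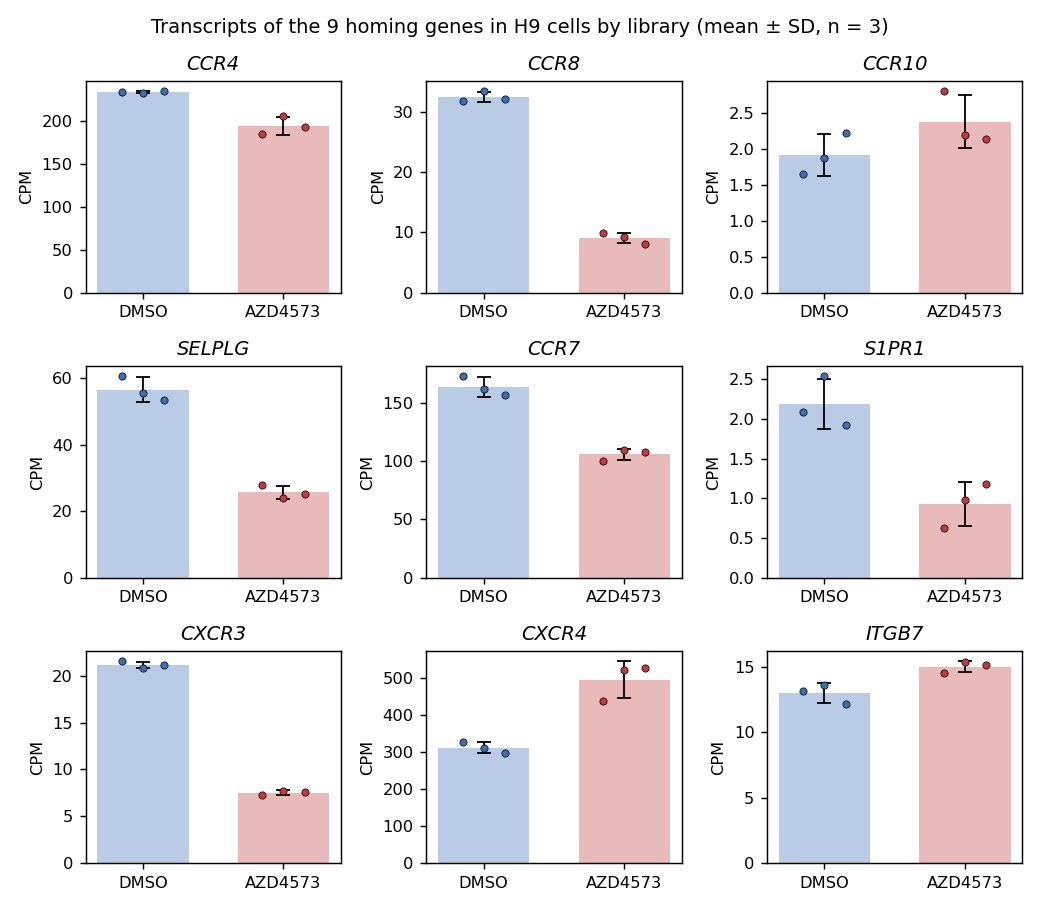
TMM-scaled CPM of the 9 genes in each H9 library (points), with bars at the group mean and lines for SD (n = 3). CCR8 fell from about 32.4 to 9.08 CPM, and the groups overlap only for CCR10; the log2 fold changes of CXCR4 and ITGB7, above 0 here, turn negative when libraries are scaled to mitochondrial mRNAs.

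All 9 genes are compact, spanning between 2596 bases (CXCR3) and 15960 bases (ITGB7) on GRCh38, where the median span of the 13423 tested protein-coding genes was 31486 bases. Among the 4131 tested protein-coding genes no longer than ITGB7, 26.4% were lower and 22.1% higher, so the share of lower genes was close to that of all protein-coding genes (27.2%). RefSeq promoter windows on GRCh38.p14, running from 250 bases before to 50 bases after a start site, were at hand for 5 of the 9 genes (7 windows). The 250 bases upstream of CCR4, CXCR3 and CXCR4 are shown because under TMM scaling CCR4 was not called, CXCR3 fell and CXCR4 rose (under mitochondrial scaling CCR4 was called lower and the rise of CXCR4 was lost), and because GATA3, the factor the study centres on, binds GATA letters. For CXCR4, the stretch lies upstream of a RefSeq start but inside the annotated span of the gene, which reaches 136119177. It holds 0 annotated exon bases. Capitals mark matches on either strand. The GATA motif was searched as AGATAA, also with T as its first or G as its last letter, and the box of TATA-binding protein as TATAAA. The CCAAT box was searched by its own letters, the GC box as GGGCGG and the E-box as CACGTG, and none of these motifs contains another.
CCR4, chr3:32951394-32951643, plus strand: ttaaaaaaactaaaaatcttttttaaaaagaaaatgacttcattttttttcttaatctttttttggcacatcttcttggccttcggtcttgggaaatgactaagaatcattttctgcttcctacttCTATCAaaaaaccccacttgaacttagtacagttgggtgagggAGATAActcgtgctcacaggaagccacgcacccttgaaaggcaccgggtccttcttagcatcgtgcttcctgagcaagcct
CXCR3, chrX:71618512-71618761, minus strand: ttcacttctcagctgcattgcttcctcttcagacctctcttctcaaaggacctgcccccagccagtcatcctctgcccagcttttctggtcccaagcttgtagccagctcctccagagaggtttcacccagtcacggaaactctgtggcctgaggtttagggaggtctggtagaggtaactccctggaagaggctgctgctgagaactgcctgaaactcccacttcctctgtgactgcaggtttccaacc
CXCR4, chr2:136118150-136118399, minus strand: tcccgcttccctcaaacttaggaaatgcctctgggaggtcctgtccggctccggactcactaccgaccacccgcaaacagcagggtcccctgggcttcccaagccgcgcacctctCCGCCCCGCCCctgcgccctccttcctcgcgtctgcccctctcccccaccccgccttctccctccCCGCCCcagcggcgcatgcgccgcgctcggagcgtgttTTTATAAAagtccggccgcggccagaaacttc

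The CCR4 window held 2 GATA matches and no GC box, with 41.7% G or C over its 300 bases, where the median window of all promoters had 58.7%. The CXCR4 window shown, the most upstream of its 3, held a run of 2 TATA box matches that overlap each other, 3 GC boxes and 66.7% G or C. No match to any of these motifs was found in the CXCR3 window (56.3% G or C). ITGB7 had 2 GATA matches in its window and S1PR1 had 1 CCAAT box and no GATA match. Over all 35116 windows, 25.0% held a GATA match, 11.5% a TATA box, 34.6% a CCAAT box, 45.0% a GC box and 7.26% an E-box, so matches of this kind are common, and they describe letters and not binding.

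CCR4, the receptor for CCL17 and CCL22 and the leading skin-homing receptor of CTCL, is encoded by 2 exons on chromosome 3 from 32951644 to 32956349. Its transcripts were at 234, 233 and 236 CPM in the DMSO libraries and at 185, 206 and 194 CPM in the AZD4573 libraries. Every AZD4573 library lay below every DMSO library, yet the step was small. The mean went from 234 ± 1.23 to 195.2 ± 10.6 CPM (SD, n = 3 in each group), so that 83.4% of the DMSO level was left. With a log2 fold change of -0.26 (standard error 0.0447, 95% interval from -0.36 to -0.17), CCR4 passed the adjusted p (0.000124, edgeR's quasi-likelihood test, Benjamini-Hochberg adjusted) and missed the fold threshold. At an adjusted p alone, 6 of the 9 genes were lower and 2 higher, beside 37.4% and 37.3% of all genes tested. Scaled to the mitochondrial mRNAs, its log2 fold change was -1.0 (adjusted p = 2.73e-11 by the same test) and it was called lower.

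CCR8, the receptor for CCL1 that is found on skin-resident and regulatory T cells, lies on the same chromosome from 39329709 to 39333680, also with 2 exons. It was at 31.8, 33.4 and 32.0 CPM with DMSO and at 9.82, 9.26 and 8.14 CPM with AZD4573, so that the groups were far apart relative to the spread within each. The mean fell from 32.4 ± 0.872 to 9.08 ± 0.857 CPM (SD, n = 3), a 3.58-fold fall that left 28.0% of the DMSO level. This was the steepest change of the 9 genes under TMM scaling (log2 fold change -1.84, standard error 0.0735, 95% interval from -1.998 to -1.68, adjusted p = 1.58e-10 by edgeR's test). CCR4 and CCR8, both skin-homing receptors with a single coding exon, thus changed to different extents: the ratio of CCR4 to CCR8 counts was between 6.97 and 7.36 in the DMSO libraries and between 18.9 and 23.8 in the AZD4573 libraries, a 2.99-fold shift in the mean ratio (exact two-sided permutation p = 0.1, the smallest that 3 against 3 libraries allow). The pair was chosen, and this p-value is unadjusted.

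CCR10, which binds CCL27 made by keratinocytes, was low in H9 cells. With DMSO it had 130, 137 and 164 counts (1.66, 1.87 and 2.23 CPM), and with AZD4573 143, 125 and 131 counts (2.81, 2.19 and 2.15 CPM). The groups overlapped. The log2 fold change of 0.31 (standard error 0.172, 95% interval from -0.061 to 0.68) did not pass the adjusted p (0.118, edgeR's quasi-likelihood test, Benjamini-Hochberg adjusted), and scaled to the mitochondrial mRNAs it was -0.42 (adjusted p = 0.04). Of its 2619 exon bases on chromosome 17, 34.4% are also exons of genes on the opposite strand, among them CNTNAP1. The counting ignored strand, so reads of these genes cannot be told apart there, and the CCR10 values are uncertain to that extent. CNTNAP1 was at 7.01 CPM with DMSO and 9.34 CPM with AZD4573, and its part in the CCR10 values was not tested.

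SELPLG, which carries the glycan that E-selectin binds on skin vessels, lies on chromosome 12 from 108621895 to 108633894. Its transcripts were at 60.6, 55.7 and 53.4 CPM with DMSO and at 27.8, 23.9 and 25.2 CPM with AZD4573. The groups did not overlap, and each AZD4573 library was at a level well under the lowest DMSO library. The mean fell 2.21-fold, from 56.5 ± 3.67 to 25.6 ± 1.97 CPM (SD, n = 3), with a log2 fold change of -1.14 (standard error 0.0669, 95% interval from -1.29 to -0.997, adjusted p = 3.78e-09 by edgeR's test). The SELPLG protein needs sugars to become a selectin ligand, and the enzymes that add them are described with their pathway below.

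CCR7 brings T cells to lymph nodes along CCL19 and CCL21 and marks the central memory-like state of Sézary cells. It has 3 exons on chromosome 17 from 40553769 to 40565472. The DMSO libraries held 173, 161 and 156 CPM and the AZD4573 libraries 100.2, 109 and 107 CPM, with no overlap between the groups. Its mean fell from 163 ± 8.40 to 106 ± 4.87 CPM (SD, n = 3), a 1.55-fold fall that lay just past the fold threshold (log2 fold change -0.63, standard error 0.0503, 95% interval from -0.74 to -0.52, adjusted p = 7.92e-08 by edgeR's test). The interval takes in the threshold itself.

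S1PR1 senses sphingosine 1-phosphate in blood and lymph and so opposes retention by CCR7. Per kilobase of canonical transcript it was the least abundant of the 9 genes, although CCR10 had the lower mean CPM with DMSO (1.92 against 2.19). S1PR1 had 164, 186 and 142 counts under DMSO (2.09, 2.54 and 1.93 CPM) and 32, 56 and 72 counts under AZD4573 (0.629, 0.982 and 1.18 CPM). The groups did not overlap, although the AZD4573 libraries spread widely. The mean went from 2.19 ± 0.317 to 0.930 ± 0.279 CPM (SD, n = 3), a 2.33-fold fall with a log2 fold change of -1.22 (standard error 0.223, 95% interval from -1.70 to -0.74, adjusted p = 0.000227 by edgeR's test). Its interval was the widest of the 9 genes, and the fall ranged from -1.43 to -1.01 on the log2 scale when each library was left out in turn.

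CXCR3, the receptor for the interferon-induced chemokines CXCL9, CXCL10 and CXCL11, lies on chromosome X from 71615916 to 71618511 and is typical of type 1 helper T cells. It was at 21.5, 20.9 and 21.1 CPM in the DMSO libraries and at 7.21, 7.67 and 7.60 CPM in the AZD4573 libraries. Both groups were tight and far apart. The mean fell 2.82-fold from 21.2 ± 0.341 to 7.49 ± 0.246 CPM (SD, n = 3; log2 fold change -1.50, standard error 0.0678, 95% interval from -1.64 to -1.35, adjusted p = 4.07e-10 by edgeR's test). TBX21, the type 1 factor known to drive CXCR3, was at 1.98 CPM with DMSO and fell to 0.463 CPM with AZD4573 (log2 fold change -2.11, adjusted p = 1.27e-06 by the same test).

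CXCR4, the receptor for CXCL12 that is found on most lymphocytes and internalised on activation, lies on chromosome 2 from 136114349 to 136119177. The DMSO libraries were at 326, 311 and 296 CPM and the AZD4573 libraries at 438, 521 and 526 CPM. On this scale every AZD4573 library lay above every DMSO library, with replicate 1 the lowest of the AZD4573 group. The mean rose 1.59-fold from 311 ± 15.1 to 495 ± 49.7 CPM (SD, n = 3) under TMM scaling, with a log2 fold change of 0.67 (standard error 0.0646, 95% interval from 0.53 to 0.81, adjusted p = 5.2e-07 by edgeR's test), whereas scaled to the mitochondrial mRNAs it was -0.073 (95% interval from -0.21 to 0.062, adjusted p = 0.301). With library size as the only scaling it was 0.57, which is under the fold threshold. Whether CXCR4 was higher thus depends on the scaling.

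ITGB7 pairs with ITGA4 to bind MAdCAM-1 in gut vessels and with ITGAE to bind E-cadherin on epithelium. It has 16 exons on chromosome 12 from 53191323 to 53207282. Its transcripts were at 13.2, 13.6 and 12.1 CPM with DMSO and at 14.6, 15.3 and 15.2 CPM with AZD4573. The AZD4573 libraries were all above the DMSO libraries, by a margin similar to the spread among the DMSO libraries. With means of 12.99 ± 0.778 and 15.02 ± 0.411 CPM (SD, n = 3), the log2 fold change was 0.21 (standard error 0.0711, 95% interval from 0.056 to 0.36, adjusted p = 0.0166 by edgeR's test), under the fold threshold, and it turned to -0.53 when scaled to the mitochondrial mRNAs. Of its 4451 exon bases, 42.3% are shared with ZNF740 on the opposite strand, a gene that went from 58.1 to 31.8 CPM (log2 fold change -0.87), so that ITGB7 counts may hold reads of a transcript that fell. The part of ZNF740 in the ITGB7 values was not tested.

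**Figure D2:**
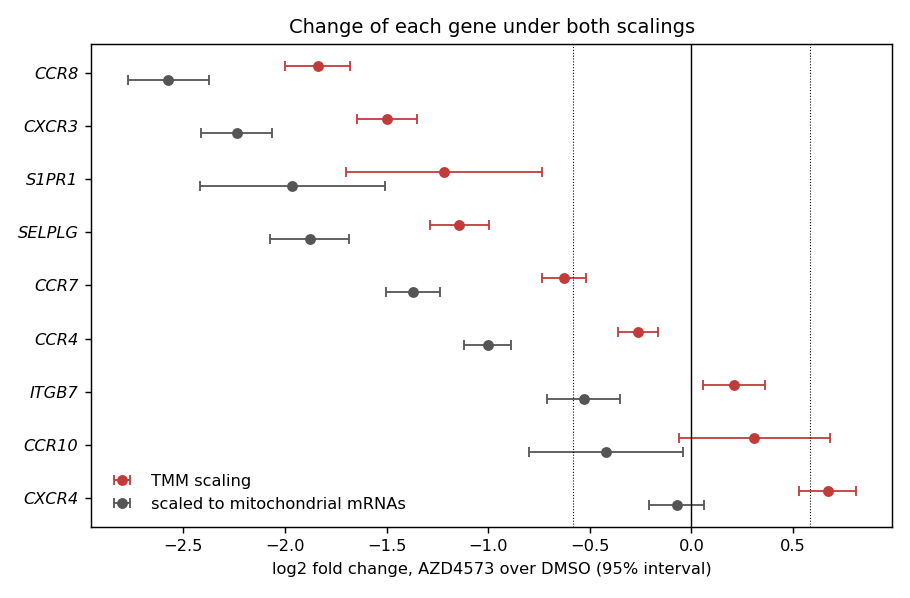
Log2 fold change of AZD4573 over DMSO with its 95% interval for each of the 9 genes, under TMM scaling (red) and scaled to the 13 mitochondrial mRNAs (grey); dotted lines mark a fold change of 1.5. CCR8, CXCR3, S1PR1, SELPLG, CCR7 and CCR4 lie below 0 on both scales, while ITGB7, CCR10 and CXCR4 lie above 0 with TMM scaling and at -0.53, -0.42 and -0.073 with mitochondrial scaling.

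By separation of the libraries, 6 of the 9 genes were lower and 2 higher in every AZD4573 library than in every DMSO library under TMM scaling, where 38.7% and 39.0% of all genes tested were separated in these directions. In the mitochondrial scaling, 6 of the 9 genes were called lower and 0 higher, beside 53.4% and 10.0% of all genes tested. At an adjusted p alone, 8 were lower and 0 higher, beside 67.2% and 12.1%. With this scaling, the median log2 fold change of all genes moved from 0.026 to -0.71. The mitochondrial mRNAs themselves made up 3.04 to 3.22% of the counts with DMSO and 4.67 to 4.98% with AZD4573. The data hold relative amounts of RNA in bulk culture, so fewer cells of a kind and less RNA per cell cannot be told apart.

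Levels of the 9 genes can be set in order per kilobase of their canonical transcript. In DMSO libraries CXCR4 was highest at 186 ± 9.03 CPM per kilobase (SD, n = 3), followed by CCR4 (77.4 ± 0.419), CCR7 (75.2 ± 3.86), SELPLG (21.98 ± 1.43), CCR8 (21.8 ± 0.587), CXCR3 (13.1 ± 0.211), ITGB7 (4.63 ± 0.276), CCR10 (1.08 ± 0.162) and S1PR1 (0.787 ± 0.114). Within this order, CCR4 and CCR7 overlapped, as did SELPLG and CCR8, so neither pair is ordered beyond its spread. In AZD4573 libraries the order was CXCR4 (297 ± 29.8 CPM per kilobase, SD, n = 3), CCR4 (64.5 ± 3.48), CCR7 (48.6 ± 2.23), SELPLG (9.97 ± 0.766), CCR8 (6.12 ± 0.577), ITGB7 (5.35 ± 0.146), CXCR3 (4.64 ± 0.152), CCR10 (1.34 ± 0.209) and S1PR1 (0.335 ± 0.1). No neighbours overlapped there, and CCR4 stood apart from CCR7 and SELPLG from CCR8. ITGB7 and CXCR3 had changed places, but this exchange was lost when levels were divided by the length of all exons of a gene, so it rests on the transcript chosen.

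Shares within a library do not depend on how the libraries are scaled, and were computed after the values were seen. They do depend on the transcript length used. CXCR4 has 1668 bases in its canonical transcript and 2902 over all its exons, where CCR4 has 3025 in both. The size of the CXCR4 share thus rests on the use of canonical lengths. Of the summed level per kilobase of the 6 chemokine receptors, CXCR4 took 50.4, 49.8 and 48.9% with DMSO and 68.6, 70.5 and 71.6% with AZD4573. Its share thus rose from 49.7% ± 0.766 to 70.2% ± 1.52 (SD, n = 3; exact permutation p = 0.1). CCR4 went from 20.7% ± 0.755 to 15.3% ± 0.724, CCR7 from 20.04% ± 0.373 to 11.6% ± 0.449, CCR8 from 5.83% ± 0.268 to 1.46% ± 0.247 and CXCR3 from 3.50% ± 0.0927 to 1.10% ± 0.0565 (SD, n = 3; exact permutation p = 0.1 for each). The libraries of the groups did not overlap for these 5 receptors. Of all genes tested, 38.7% were separated as lower and 39.0% as higher under TMM scaling. That background is for levels and not for shares. The shares of a library add up to the whole, so a larger CXCR4 share leaves a smaller sum for the other receptors. The 5 separations and their p-values are therefore not separate observations. CCR10 kept a share below 1% in both groups, at 0.290% and 0.323% (exact permutation p = 0.7), and its libraries overlapped. The ratio of CXCR4 to CXCR3 counts moved the most among 6 ratios examined, by 4.49-fold, with 14.0 to 15.2 in the DMSO libraries and 60.7 to 69.2 in the AZD4573 libraries (exact permutation p = 0.1, unadjusted, so no adjusted value can fall under it). Under TMM scaling CXCR4 was higher and CXCR3 lower in every AZD4573 library than in every DMSO library. Their ratio therefore had to separate, and its p-value adds no support. The 6 ratios were chosen pairs and not all pairs. That of CXCR4 to CCR8, the steepest fall, was not among them, so the ranking holds only for the pairs examined.

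**Figure D3:**
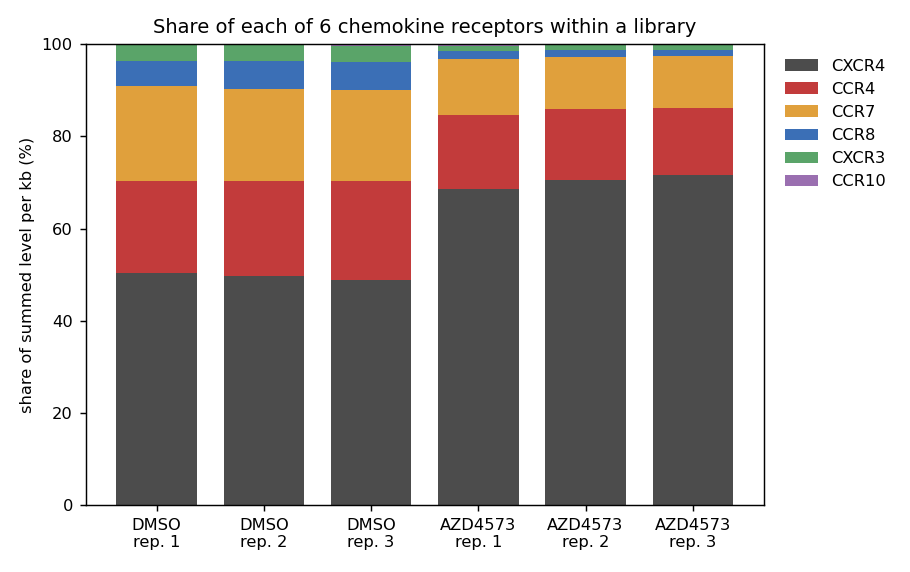
Share of each of 6 chemokine receptors in their summed level per kilobase of canonical transcript, in each of the 6 libraries (stacked bars, per cent). CXCR4 takes 48.9 to 50.4% with DMSO and 68.6 to 71.6% with AZD4573, and CCR8 and CXCR3 shrink to 1.46% and 1.10% on average.

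ATTTA elements in the 3′ untranslated region, which are bound by proteins that promote mRNA decay, were counted in the canonical transcripts as a feature the choice of genes did not use. CCR4 had 4 elements in 1844 bases, CXCR4, SELPLG and S1PR1 had 1 each, and CCR7, CCR8, CCR10, CXCR3 and ITGB7 had 0. Among 13366 tested protein-coding genes, the median was 2 elements in 1249 bases, and 70.5% had at least 1. The gene with the most elements, CCR4, was among the 3 genes not called with TMM scaling, and CCR8 and CXCR3, the steepest falls, had none; with 9 genes this is a description only.

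The identity of the cells and the depth of the libraries bear on these values. Total counts ranged from 70367303 to 76571157 with DMSO and from 52101868 to 63795185 with AZD4573, and a count of 0 allows at most 0.0392 to 0.0576 CPM depending on the library (3 counts; only counting error enters this bound, and PCR copies of a molecule are counted as separate reads). Of 10 T-cell markers, 9 averaged at least 1 CPM, and their summed level was 1030 to 1070 CPM with DMSO and 1270 to 1310 CPM with AZD4573. CD2 was nearly absent, with at most 13 counts in a library, and CD4 was low (3.83 CPM with DMSO). Keratinocyte, endothelial and erythroid markers summed to at most 0.218 CPM in any library, with KRT14, VWF, KDR, TEK and HBB at 0. Of 5 B-cell markers, 2 were above 1 CPM and the sum went from 61.0 to 67.0 CPM with DMSO to 92.5 to 103 CPM with AZD4573, nearly all of it CD79A, with MS4A1 below 1 CPM and PAX5 at 0 to 3 counts. The 5 myeloid markers went from at most 0.259 CPM to at most 2.08 CPM, of which MPO made up the larger part, and the 4 fibroblast markers, essentially COL1A1 alone, from at most 7.40 CPM to at most 4.36 CPM. What these markers contribute to the 9 genes was not tested.

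The rest of the trafficking pathway was described through 8 lists of 196 genes in all. Of 17 other chemokine receptors, 9 could be tested, and 6 were lower (66.7%) and 2 higher (22.2%), with a median log2 fold change of -1.77. Under the same TMM scaling, 23.7% of all genes tested were lower and 22.7% higher. The inflammatory receptor CCR1 fell from 10.4 to 1.26 CPM (log2 fold change -3.05) and the chemerin receptor CCRL2 from 3.08 to 0.290 CPM (-3.40). CX3CR1, the fractalkine receptor of cytotoxic T cells, rose from 0.484 to 4.82 CPM (log2 fold change 3.31, and 2.57 with mitochondrial scaling). CXCR5, the follicular receptor, was at 0.932 and 1.67 CPM (log2 fold change 0.84, and 0.10 with mitochondrial scaling), with 91.1% of its exon bases shared with BCL9L on the opposite strand. CCR6 and CCR9, receptors of mucosal T cells, were among the 8 that were not tested, with 0 and at most 4 counts in any library.

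Few ligands of these receptors were transcribed by the cells themselves. Of 24 chemokine genes, 8 were tested, 1 was lower (12.5%), 0 were higher, and the median log2 fold change was -0.30. Of all genes tested, 23.7% were lower and 22.7% higher. CXCL10, the CXCR3 ligand, fell from 7.07 to 0.879 CPM (log2 fold change -3.01). The ligands of the skin receptors were near 0: CCL27 and CCL1 had 0 counts in each library, CCL17 had at most 2 and CCL22 at most 10. CCL19 and CCL21, the ligands of CCR7, and CXCL12, the chemokine ligand of CXCR4, had at most 2 counts in any library. MIF, a cytokine that also binds CXCR4, was at 424 CPM with DMSO and 567 CPM with AZD4573 and was not called (log2 fold change 0.42, and -0.32 with mitochondrial scaling). CCL5, the most abundant chemokine of T cells, was at 151 CPM with DMSO and 203 CPM with AZD4573 and was not called (log2 fold change 0.43, and -0.31 with mitochondrial scaling).

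Among 25 selectins and genes of selectin ligand synthesis, 19 were tested, with a median log2 fold change of -0.91. Of these, 11 were lower (57.9%) and 2 higher (10.5%), beside 23.7% and 22.7% of all genes tested. GCNT1, which builds the branched O-glycan that carries sialyl Lewis x on SELPLG, fell from 22.97 to 2.75 CPM (log2 fold change -3.06). FUT4, a fucosyltransferase of the same glycan, fell from 19.9 to 2.89 CPM (log2 fold change -2.79), and the sulfotransferase CHST2 from 186 to 41.2 CPM (-2.18). FUT7, the principal fucosyltransferase of the cutaneous lymphocyte antigen, was not tested, with 0, 7 and 0 counts under DMSO and 0, 4 and 0 counts under AZD4573. The sialyltransferase ST3GAL3 (log2 fold change 0.65) and GMDS, of GDP-fucose synthesis (0.59), were the 2 higher genes with TMM scaling, and stood at -0.093 and -0.15 with mitochondrial scaling.

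The 30 tested integrin subunits, ligands and adapters, of 32 listed, had 5 lower (16.7%) and 8 higher (26.7%) genes and a median log2 fold change of 0.22. Beside these shares, 23.7% of all genes tested were lower and 22.7% higher. The partners of ITGB7 were not called with TMM scaling: ITGA4 was at 157 and 169 CPM (log2 fold change 0.11) and ITGAE had a log2 fold change of 0.068 (adjusted p = 0.424 by edgeR's test). With mitochondrial scaling both were called lower, at -0.63 and -0.67. ITGB1, the alternative partner of ITGA4, was at 108 and 170 CPM (log2 fold change 0.66, called higher, and -0.079 with mitochondrial scaling). Falls were led by VCAM1, the ligand of α4 integrins (log2 fold change -2.96), ICAM1 (82.3 to 32.8 CPM, -1.33) and ITGA5 (-1.19). Among genes with at least 1 CPM in the higher group, ITGB5 (log2 fold change 2.17), TLN2 (0.95) and ITGA2 (0.92) led the rises, and under mitochondrial scaling they were at 1.44, 0.21 and 0.19.

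In the sphingosine 1-phosphate pathway, 13 of 14 genes were tested, and the median log2 fold change was -0.28. Lower were 5 (38.5%) and higher were 3 (23.1%), beside 23.7% and 22.7% of all genes tested. S1PR5, a receptor of natural killer cells and some T cells, fell from 2.25 to 0.312 CPM (log2 fold change -2.83), PLPP1, a lipid phosphatase, by 2.41 and the kinase SPHK2 by 1.18 on the log2 scale. The phosphatase SGPP2 (log2 fold change 2.94, and 2.20 with mitochondrial scaling) and the transporter SPNS2 (0.91, and 0.17) were higher with TMM scaling. CD69, which removes S1PR1 from the cell surface, was at 22.9 and 26.1 CPM with overlapping groups and was not called (log2 fold change 0.18, and -0.55 with mitochondrial scaling).

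Genes of signalling downstream of the receptors formed a pair of lists. Of 20 tested genes of receptor desensitisation (21 listed), 5 were lower (25%) and 1 higher (5%), with a median log2 fold change of -0.23. The share of lower genes was thus near the 23.7% of all genes tested, of which 22.7% were higher. RGS3 (log2 fold change -1.28), RGS1 (124 to 54.6 CPM, -1.18) and RGS19 (-1.11), brakes on G protein signalling, led the falls among genes above 1 CPM. The kinase GRK2, which switches off CXCR4 and other receptors, was the higher gene (537 to 1057 CPM, log2 fold change 0.98, and 0.24 with mitochondrial scaling). All 35 listed genes of migration signalling were tested, with 4 lower (11.4%), 4 higher (11.4%) and a median log2 fold change of 0.13. Both shares were under those of all genes tested (23.7% and 22.7%). ROCK2 (log2 fold change -1.69), RDX (-1.15) and GNAI3 (-1.11) fell the most, and PREX1 (0.95), PXN (0.80) and DOCK2 (0.77) were higher with TMM scaling but at 0.21, 0.057 and 0.030 with mitochondrial scaling.

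Of 28 transcription factors known to act on these receptors, 26 were tested, with a median log2 fold change of -0.31. Among them 9 were lower (34.6%) and 3 higher (11.5%), beside 23.7% and 22.7% of all genes tested. KLF2, an activator of S1PR1, fell from 9.80 to 2.296 CPM (log2 fold change -2.09, adjusted p = 1.01e-09 by edgeR's test), and FOXO1, which acts on KLF2 and CCR7, from 24.2 to 6.75 CPM (-1.84, adjusted p = 4.98e-10). PRDM1 fell by 2.37 on the log2 scale. BACH2 rose from 135 to 560 CPM (log2 fold change 2.05, and 1.31 with mitochondrial scaling). GATA3, the type 2 factor associated with CCR4 and CCR8, was at 216 and 358 CPM (log2 fold change 0.73, called higher, and -0.014 with mitochondrial scaling). Beside these GATA3 values, the log2 fold changes of CCR4 and CCR8 were -0.26 and -1.84 with TMM scaling and -1.0 and -2.58 with mitochondrial scaling. By qRT-PCR, the study reported a fall of GATA3 transcripts with AZD4573 in cell lines, H9 among them, and in primary specimens. From RNAP2 ChIP-seq it also reported pausing at the GATA3 locus in treated H9 cells, and it named GATA-3 a CDK9 target. The GATA3 values here do not show the fall reported by qRT-PCR under either scaling, and the reason was not tested. They are RNA levels and do not measure pausing. No test linked any factor to a receptor.

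Scaled to the mitochondrial mRNAs, where 53.4% of all genes tested were lower and 10.0% higher, the lower and higher calls became 7 and 1 of 9 other chemokine receptors, 5 and 0 of 8 ligands, 15 and 0 of 19 genes of selectin ligand synthesis, 14 and 1 of 30 integrin genes, 8 and 2 of 13 genes of the sphingosine 1-phosphate pathway, 16 and 0 of 20 desensitisation genes, 18 and 0 of 35 migration genes and 18 and 1 of 26 transcription factors. The shares of lower integrin and migration genes were thus near that of all genes, and no list was tested as a set.

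**Figure D4:**
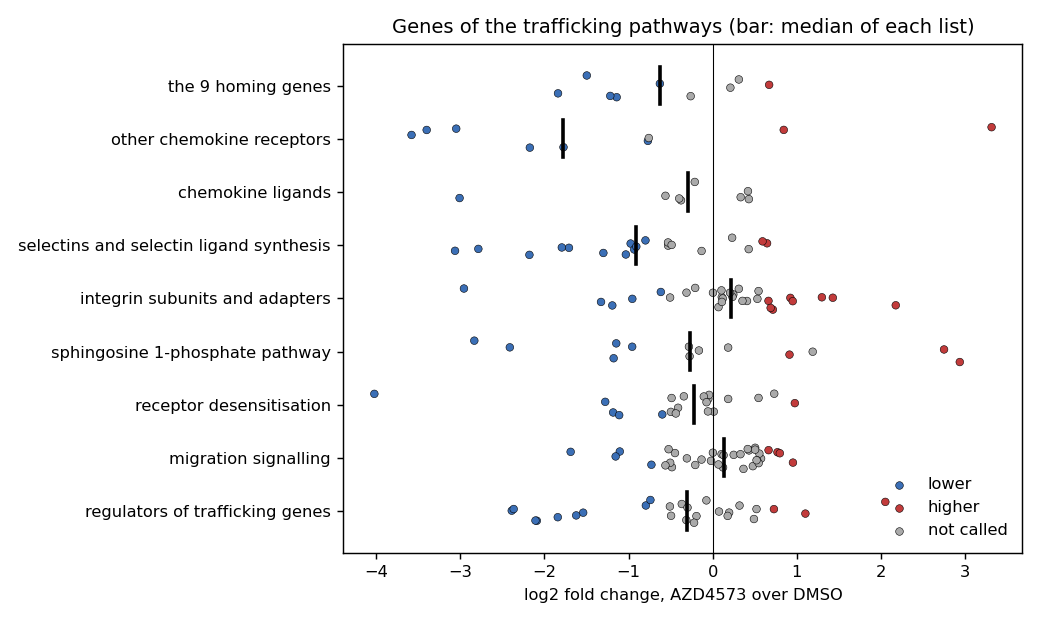
Log2 fold change (AZD4573 over DMSO, TMM scaling) of the 9 homing genes and of the tested genes of 8 trafficking lists, coloured by call (adjusted p below 0.05, fold change of 1.5 or more); the black bar is the median of each list. Medians run from -1.77 (other chemokine receptors) to 0.22 (integrins), and under mitochondrial scaling all of them are negative.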

How the data were processed

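The libraries were bulk RNA-seq of H9 cells, 3 with DMSO and 3 with AZD4573, grouped by their titles. On library preparation the sources differ: poly(A) selection in the labels, rRNA depletion in the supplement. Per the labels and methods, the authors trimmed reads with Cutadapt 2.3, aligned them to GRCh38 with STAR 2.7.8a and deposited expected counts per gene from RSEM 1.3.3 at default settings, which ignore strand. The expected counts carry no normalization, and they were passed through rounding to whole numbers before the test. In addition to 61541 genes, the table held 5 reporter sequences with 0 counts.

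Counts were analysed in R 4.3.3 with edgeR 4.0.16 (filter with a minimum count of 10, TMM, quasi-likelihood test, Benjamini-Hochberg adjustment over 17678 genes, no replicate block). Calls required an adjusted p below 0.05 together with a 1.5-fold change or more. CPM errors are SD over libraries, and intervals are 95%. Alternatives were RLE factors, library size only, mitochondrial mRNAs, no filter, a minimum of 10 counts in all libraries, omission of each library, a replicate block, DESeq2 1.42.0, a fold of 2 and unadjusted p. Within-library shares were added after seeing the data.

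The 9 genes and the lists were chosen with earlier results of these data known. Named from each list were the called genes with at least 1 CPM in the higher group, up to the 3 largest falls and 3 largest rises, together with GATA3, KLF2, FOXO1, TBX21, FUT7, ITGA4, ITGAE, ITGB1 and CD69. Some genes that met this rule are not reported here. The ligands CCL1, CCL5, CCL17, CCL19, CCL21, CCL22, CCL27, CXCL12 and MIF, the receptors CCR6 and CCR9, and the opposite-strand genes CNTNAP1 and ZNF740 were named after their values were seen. Gene positions came from GENCODE release 44, and promoters from RefSeq. The procedure was tested on simulated data. No library was a copy of another, since chi-square values over genes were 5.59 to 21.2 times their degrees of freedom within groups.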

Additional observations from a re-analysis of the deposited data

How the results depend on the processing

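Over the 9 genes and 13 alternative fits, 109 of 117 log2 fold changes kept both direction and side of the adjusted p threshold, 5 lost the adjusted p and 3 reversed. The reversals all came with mitochondrial mRNA scaling: CXCR4 -0.073 (adjusted p = 0.301), CCR10 -0.42 (0.04) and ITGB7 -0.53 (2.46e-05). This scaling gave 9433 lower and 1769 higher genes, and 0 higher among the 9. ITGB7 also lost the adjusted p with library size only (log2 fold change 0.11, adjusted p = 0.188), no filter (0.17, 0.0979) and DESeq2 (0.19, 0.0674), and without DMSO replicate 3 (0.15, 0.109) or AZD4573 replicate 2 (0.19, 0.0564); over all alternatives its adjusted p ranged from 2.46e-05 to 0.188. CXCR4, at a fold under 1.5, was not called with library size only, which left 0 higher genes among the 9, and a fold of at least 2 left 0 as well, with 2450 lower and 2643 higher genes in all. The calls of lower genes among the 9 held with 5 genes in each fit that left out 1 library.

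With each library left out in turn, log2 fold changes ranged from -0.31 to -0.23 for CCR4, from -0.67 to -0.60 for CCR7, from -1.90 to -1.77 for CCR8, from 0.17 to 0.42 for CCR10, from -1.52 to -1.48 for CXCR3, from 0.62 to 0.75 for CXCR4, from -1.21 to -1.10 for SELPLG, from -1.43 to -1.01 for S1PR1 and from 0.15 to 0.24 for ITGB7, and 4142 to 4337 genes were lower and 3872 to 4119 higher. Deviations from the group means were nearly uncorrelated between libraries of the same replicate number (correlations -0.0072, 0.071 and -0.020). This cannot show whether such libraries shared a culture or day. A replicate block gave 4162 lower and 3926 higher genes, with 5 and 1 among the 9.

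Depth limits CCR10 and S1PR1, with at most 186 counts in a library, and the shared exons of CCR10 and ITGB7 limit these genes at any depth. The cause of the difference between scalings was not tested.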
